A study of Mus musculus with 8 samples.

Results

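Gene expression in imiquimod-treated mouse epidermis was compared between 2 libraries labelled Ovol1 -/- and 2 libraries labelled Ovol1 +/+. These were the 4 imiquimod libraries of a set of 8, and every gene with a mean of at least 10 normalised counts over the 4 entered the comparison, which left 13930 of 16902 listed genes. RNA came from the epidermis of CD1 mouse back skin, lifted from the dermis with dispase. Polyadenylated RNA was made into strand-specific libraries and sequenced in pairs of 100-bp reads. Each group held 1 female and 1 male. Values below are given as the female and the male +/+ control against the female and the male -/- library. The other 4 libraries came from untreated mice, 2 labelled Ovol1 -/- and 2 labelled Ovol1 +/-, so the control genotype was not the same in the untreated and the imiquimod comparison. The sources used here do not state the age of the mice, the nature of the Ovol1 allele, or the dose and length of the imiquimod treatment. The labels do not say whether a library came from 1 mouse or from several, so p-values measure the spread between these libraries.

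Ovol1 encodes a zinc-finger factor that acts as keratinocytes leave the basal layer, stop dividing and begin to differentiate. In the upper layers of the epidermis such cells build the cornified envelope, a shell of cross-linked proteins, and fill the spaces between them with lipids. Imiquimod activates Toll-like receptor signalling, and on mouse skin it gives a psoriasis-like inflammation in which keratinocytes thicken the epidermis, release alarm cytokines and draw in leukocytes. Comparing the genotypes in treated skin asks how the inflamed epidermis differs when Ovol1 is labelled as lost.

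The 4 libraries held 28.6 to 34.0 M reads (M, 1e6 reads). Basal and suprabasal keratins were abundant in all of them, with Krt5 at 199572 and 186498 against 132064 and 156311 and Krt10 at 195382 and 268557 against 117001 and 187343 normalised counts. Genes listed as markers of Langerhans cells, T cells, neutrophils, fibroblasts and muscle were also detected. No marker list had a gene in the tables that was at 0 in all 4 libraries, and the mitochondrially encoded genes are not in the tables used here. The female control stood apart for muscle, where the summed normalised count of 14 markers was 3862 against 287 to 742 in the other libraries. Fibroblast markers split by sex, with sums of 28329 and 27679 in the female control and the female labelled knockout and 121582 and 80727 in the male ones. In RNA from a whole tissue layer, fewer cells of a type and less RNA per cell cannot be told apart.

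The Ovol1 transcript itself was higher, not lower, in the libraries labelled knockout. It was at 7635 and 9556 against 13457 and 13076 normalised counts, so both labelled knockouts stood above both controls (log2 fold change 0.64, SE 0.14, limma adjusted p = 0.0871, and 0.0676 when sex is a block). With 1 value for the whole gene, a deleted exon cannot be seen, so this does not check the genotype, and the -/- libraries are called labelled knockouts here. Its paralog Ovol2 was at 169.8 and 139 against 229.6 and 251, a log2 fold change of 0.64 (SE 0.27, adjusted p = 0.221). Of 14 Ovol genes and factors of epithelial-mesenchymal transition 6 were positive and 8 negative (median -0.098), and 0 passed. At an unadjusted limma p under 0.05, 5 were higher and 2 lower, beside 10.4% and 12% of all genes. With the block the transcription factor gene Snai2 and the epithelial splicing factor gene Esrp1 were lower (-0.79 and -0.64, adjusted p = 0.0304 and 0.0430).

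Under imiquimod, 65 of 13930 genes passed the threshold, a Benjamini-Hochberg adjusted p under 0.05 over all genes tested, in a limma fit of log2(normalised count + 1) (0.467% of all genes tested). Of these, 23 were higher in the labelled knockouts (0.165%) and 42 lower (0.302%). Their fold changes ran from 1.62 to 53.6 with a median of 2.51, and all 65 had groups that did not overlap, as had 7484 genes in all (53.7%, with 27.4% higher and 26.3% lower). The higher genes included the alarm cytokine Il1a, the water and glycerol channel Aqp3, the connexin Gjb6 and a pair of fused S100 proteins of the cornified layer, and the lower ones 5 late cornified envelope genes of the Lce1 family, the cytokine Tnfsf15, the decoy receptor Tnfrsf11b and the sterol carrier Stard4. With sex as a block in the same fit, 335 genes passed (2.4%), 85 higher (0.61%) and 250 lower (1.79%), and the 65 were among them. Counts of calls in the gene lists below are to be read beside these shares. At an unadjusted p under 0.05 there were 3128 genes (22.5%), 1451 higher (10.4%) and 1677 lower (12%). Over all genes the female and the male pair had the same direction in 9479 (68%), and across genes their log2 fold changes had a Pearson correlation of 0.385, a description over genes that share the same libraries. All 65 kept their direction in every setting tried. As their groups did not overlap, leaving out 1 library could not have reversed any of them, so the kept direction is no check there. Of the 65, 30 passed in limma and in edgeR both with and without the block, 12 higher and 18 lower. The number that passed rested on single libraries: it was 5 without the female control, 3 without the female labelled knockout, 301 without the male labelled knockout and 0 without any one of the untreated libraries, which enter only through the shared estimate of the spread.

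**Figure D1:**
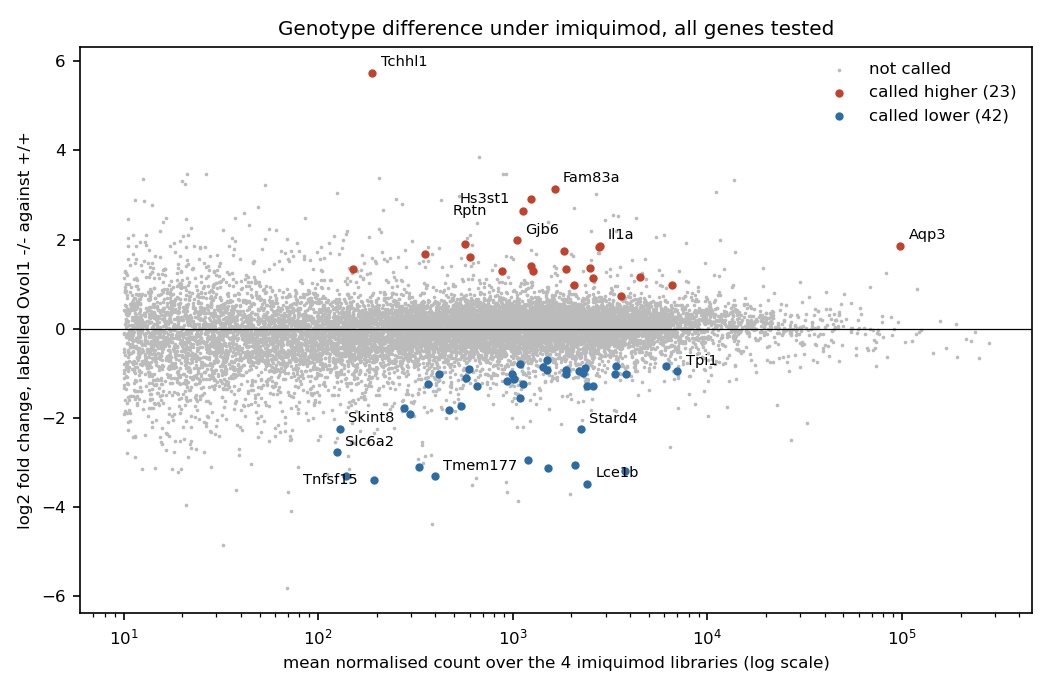
Each point is 1 of 13930 genes, with the mean normalised count over the 4 imiquimod libraries on a log scale and the log2 fold change of labelled knockouts against +/+ controls on the vertical axis. Red and blue points are the 23 genes called higher and the 42 called lower; Tchhl1 lies highest of the called genes at 5.74, Lce1b lowest at -3.48, and Aqp3 is the most abundant.

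The late cornified envelope genes of chromosome 3 encode small proteins that are added to the envelope as it matures. Lce1 genes serve the normal cornified layer, while Lce3 genes are known for their induction in injured and psoriatic skin. The 2 subfamilies lay on opposite sides. Stretches before the transcription starts of the 5 Lce1 genes that fell and of 3 Lce3 genes are shown first, from RefSeq for GRCm38.p6 (mm10), each read 5′ to 3′ on the gene's own strand and ending at the base before the start. Capitals mark the longest word shared by the printed windows of a subfamily, for Lce1 the first of 2 of equal length. They were looked for after the values were known.
Lce1a1 (chr3:92648308-92648387, minus strand): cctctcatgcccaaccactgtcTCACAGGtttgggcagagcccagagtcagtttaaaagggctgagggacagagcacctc
Lce1a2 (chr3:92670316-92670395, minus strand): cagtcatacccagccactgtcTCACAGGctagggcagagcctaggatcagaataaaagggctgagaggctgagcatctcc
Lce1b (chr3:92656927-92657006, minus strand): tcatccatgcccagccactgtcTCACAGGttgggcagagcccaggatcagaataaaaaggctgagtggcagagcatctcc
Lce1c (chr3:92679167-92679246, plus strand): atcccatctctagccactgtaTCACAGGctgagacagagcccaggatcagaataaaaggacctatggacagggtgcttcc
Lce1d (chr3:92687211-92687290, minus strand): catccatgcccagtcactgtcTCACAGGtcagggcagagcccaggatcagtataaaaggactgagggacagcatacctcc
Lce3c (chr3:92944406-92944485, plus strand): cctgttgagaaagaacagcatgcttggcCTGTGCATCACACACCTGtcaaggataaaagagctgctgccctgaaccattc
Lce3e (chr3:92966981-92967060, plus strand): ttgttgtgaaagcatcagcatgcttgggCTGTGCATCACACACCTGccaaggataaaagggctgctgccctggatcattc
Lce3f (chr3:92992137-92992216, plus strand): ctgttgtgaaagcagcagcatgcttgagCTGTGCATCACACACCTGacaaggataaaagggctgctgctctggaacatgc
The word TCACAGG begins at base -58 or -59 in the 5 Lce1 windows, base -1 being the last before the start. It was searched on either strand of the 300 bases around the start (250 before and 50 after). It was found in 9 of 13 Lce1 genes with a RefSeq promoter and in 0 of 6 Lce3 genes. It was also found in 4 of 11 small proline-rich Sprr genes, a further envelope family, and in 6.28% of the 10935 tested genes with a promoter. The word CTGTGCATCACACACCTG begins at base -52 in 3 of 6 Lce3 genes and was found in 0 of 13 Lce1 genes and 0.0274% of all genes. The Lce1 and Lce3 counts include the printed windows from which the words were taken, so those matches were fixed in advance. These words describe how alike the windows are within a subfamily, and no factor was assigned to them.

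Each of the 14 Lce1 genes was negative, between -3.87 and -2.21 on the log2 scale. The median was -3.16, against -0.0077 over all genes tested. The 5 that passed are neighbours on the chromosome. Lce1b was at 2967 and 5859.6 against 219 and 633 normalised counts (log2 fold change -3.48, SE 0.50, adjusted p = 0.0449). Lce1a1, the most abundant of the 5, was at 4822 and 8822 against 502 and 1016 (log2 fold change -3.19, SE 0.37, adjusted p = 0.0318). Lce1d fell from 1619.5 and 3824 to 192 and 415, Lce1c from 2497 and 4919 to 274 and 648 and Lce1a2 from 1481 and 2768 to 175 and 385. In each, both controls stood above both labelled knockouts, and the male library was above the female one in both groups. With sex as a block 13 of the 14 passed, where 1.79% of all genes were called lower. Among them was the most abundant member Lce1m, at 32152 and 56706 against 4123 and 13988 (0.0132 with the block, 0.112 without). The exception was Lce1g, at 151 and 389 against 26.8 and 87.5 (adjusted p = 0.0946 with the block). The lowest log2 fold change was that of Lce1l, at 1339.7 and 2611 against 64.6 and 247 (log2 fold change -3.87, adjusted p = 0.0313 with the block and 0.0533 without). The Lce1 copies are near-identical in places, so the division of reads among them is uncertain.

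The 6 Lce3 genes were all positive, between 1.70 and 3.04 (median 2.36), and in all of them both labelled knockouts stood above both controls, as in 27.4% of all genes. None passed the threshold, with or without the block. Lce3c, the most abundant, was at 827 and 1891 against 3762 and 4418 (log2 fold change 1.70, adjusted p = 0.0806). Lce3d was at 68.8 and 199 against 930.5 and 913 (2.97, adjusted p = 0.112) and Lce3e at 15.6 and 42.2 against 191 and 253 (3.04, adjusted p = 0.0723). The female pair was wider apart than the male pair, with medians of 3.54 and 1.49. By contrast the Lce1 medians were -3.22 and -3.14 in the 2 pairs. Summed over the family, Lce1 genes had 52782 and 98049 normalised counts against 6089 and 19049, while Lce3 genes had 1006 and 2413 against 5517 and 6349.

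Other precursors of the envelope divided as well. Tchhl1, a trichohyalin-like fused S100 protein, showed the largest fold change of the called genes, from 3.67 and 4.57 to 116 and 635 normalised counts (log2 fold change 5.74, SE 0.68, adjusted p = 0.0335). It passed the filter on the mean only through the labelled knockouts, and each control rested on 4 reads. Rptn, which encodes the envelope precursor repetin, rose from 253 and 361 to 1467 and 2433 (log2 fold change 2.64, SE 0.34, adjusted p = 0.0420). Another fused S100 gene went the other way. Flg2, whose product resembles filaggrin, was at 25543 and 44027 against 7335 and 14091 (log2 fold change -1.72) and passed only with sex as a block (adjusted p = 0.0131, 0.0812 without). Hornerin (Hrnr) was at 5732 and 13111 against 3561 and 4414 (-1.13, adjusted p = 0.159) and filaggrin (Flg) at a log2 fold change of -0.44 (adjusted p = 0.625).

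Of 19 tested envelope precursors and transglutaminases, 15 were negative with a median of -0.23, and 0 passed. With the block 2 were lower. Lce6a, a lone member of the Lce cluster, was at 1003 and 2361 against 73.6 and 268 normalised counts (log2 fold change -3.44, adjusted p = 0.0131 with the block). Kprp, a proline-rich keratinocyte protein, was at 8691 and 12956 against 905 and 3121 (-2.66, adjusted p = 0.0193 with the block). Loricrin (Lor), the main envelope protein of the mature layer, was at a log2 fold change of -0.83 (adjusted p = 0.364). The small proline-rich Sprr genes, cross-bridges of the envelope that rise in stressed epidermis, were positive in 12 of 13 cases (median 0.94), and 0 passed. Sprr1a was at 42089 and 52653 against 91597 and 87168 (0.92, adjusted p = 0.1002) and Sprr2f at 261 and 1069 against 3529 and 3355 (2.70, adjusted p = 0.104), the female control of Sprr2f being the lowest library by far. The Sprr medians were 1.60 between the females and 0.34 between the males.

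**Figure D2:**
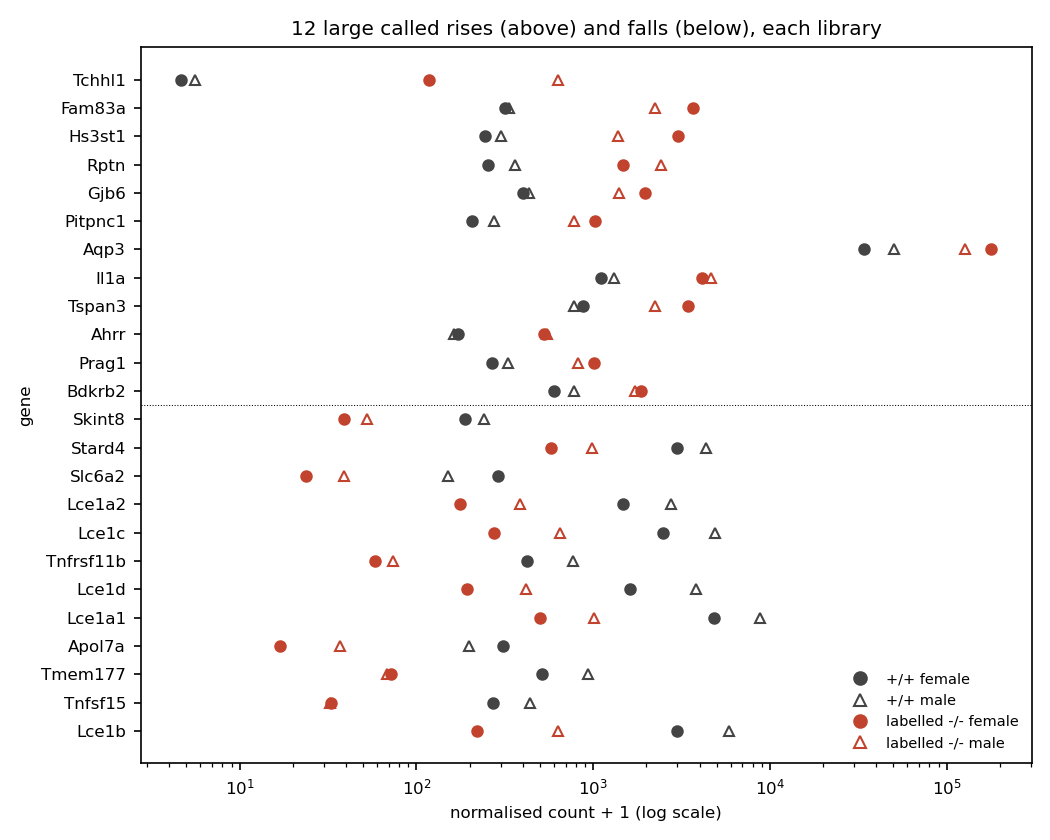
Normalised count plus 1 on a log scale in each library for 12 of the largest called rises (above the dotted line) and the 12 largest called falls (below it); circles are female, triangles male, grey the +/+ controls and red the labelled knockouts. The groups do not overlap in any of the 24 genes, and in the Lce1 genes the male library lies above the female one in both groups.

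Keratins of the normal upper layers and keratins of injured skin also lay on opposite sides. Suprabasal keratins were negative in 7 of 8 cases (median -0.71), and 0 passed. Krt77 was at 282095 and 328511 against 169625 and 220356 normalised counts (-0.65, adjusted p = 0.118) and Krt23 at 9560.2 and 11559 against 1672 and 5534 (-1.79, adjusted p = 0.131). The exception was Krt1, a defining keratin of suprabasal cells, at 45642 and 84479.8 against 65181 and 59554, where the groups overlapped. Genes of stress keratins and hyperproliferation were positive in 16 of 18 cases (median 0.82), and 1 of them passed. That was Gjb6, a connexin gene known to be raised in psoriatic epidermis, which rose from 400.1 and 434 to 1952 and 1399.8 (log2 fold change 1.99, SE 0.19, adjusted p = 0.0226). The wound keratin Krt6b was at 729 and 6769.6 against 30863 and 16160.4, a log2 fold change of 3.33 that was 5.40 between the females and 1.26 between the males (adjusted p = 0.115). Krt6a was at 0.81 (adjusted p = 0.125), and Krt17 at 67504 and 103463 against 161481 and 146103 (0.88, adjusted p = 0.101). The list medians were 1.22 between the females and 0.47 between the males. Basal keratinocyte genes had a median of -0.11 and 0 calls. With the block 1 was lower, Dst, an anchor of hemidesmosomes, at 19549.9 and 16172 against 9514 and 10216 (log2 fold change -0.85, adjusted p = 0.0413).

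Among the 10 epidermal connexins, which form channels between keratinocytes, Gjb6 rose and Gjb5 fell. Gjb5 dropped from 2773 and 3031 to 1464 and 1528 normalised counts (log2 fold change -0.95, SE 0.11, adjusted p = 0.0318), with both controls close to each other and both labelled knockouts close to each other. Gjb2, the usual partner of Gjb6 in activated epidermis, was at 5164 and 7621 against 25832 and 16564 (1.72, adjusted p = 0.103). Desmosome genes had a median of -0.20 and 0 calls. With the block Dsc2 was higher, at 405 and 315 against 818 and 689 (1.07, adjusted p = 0.0406), while Dsp, the plaque protein desmoplakin, was at a log2 fold change of -0.54 (adjusted p = 0.133). Of 15 tight junction genes, Cgn, which encodes cingulin, was lower with the block, at 3034 and 4017 against 461 and 1538 (-2.05, adjusted p = 0.0399 with the block and 0.0927 without).

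In the lists of growth factor and channel genes, single members passed. Fam83a, which encodes a scaffold protein that acts in EGF receptor signalling, rose from 317 and 331 to 3680.1 and 2239 normalised counts (log2 fold change 3.14, SE 0.24, adjusted p = 0.0226), and it was the only one of 8 Fam83 genes to pass. Aqp3, the channel for water and glycerol in basal keratinocytes, rose from 34199.9 and 50547 to 179407 and 127864 (log2 fold change 1.87, SE 0.23, adjusted p = 0.0353), the largest gain in counts of any called gene. None of the other 8 aquaporins and solute channels tested passed, and with the block Aqp9 was lower (-0.88, adjusted p = 0.0331). Of 15 EGF receptor family genes none passed. With the block the ligand Tgfa was higher, at 5846 and 7118 against 17718 and 12315 (1.20, adjusted p = 0.0319), and the receptor Erbb3 lower, at 6326 and 6288 against 3763 and 4186 (-0.67, adjusted p = 0.0375). A further ligand, Epgn, was at 8833 and 13014 against 25598 and 29594 (1.36, adjusted p = 0.125), both labelled knockouts above both controls. Cell cycle genes were negative in 27 of 32 cases (median -0.35) with 0 calls, and Mki67, the common proliferation marker, was at -0.61 (adjusted p = 0.368).

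Il1a, an alarm cytokine that keratinocytes store, rose from 1102 and 1306 to 4134 and 4617 normalised counts (log2 fold change 1.86, SE 0.18, adjusted p = 0.0226), and the fold was near the same in the female pair (1.91) and the male pair (1.82). It was the only one of 18 IL-1 family genes to pass. Il33, another alarmin of the family, was at 804 and 1741 against 6265 and 4699.6 (2.20, adjusted p = 0.0711), and the receptor gene Il18r1 at 982 and 1242 against 492 and 453 (-1.22, adjusted p = 0.0912). Members of the IL-20 subfamily split between ligands and receptors. The ligand Il24 was at 54.1 and 121 against 1626 and 865 (3.86, adjusted p = 0.101) and Il19 at 11.9 and 85.6 against 460.3 and 266 (3.39, adjusted p = 0.134), with the female labelled knockout highest for both. The receptor gene Il20ra, which encodes one chain of the receptor for these ligands, fell from 839 and 734 to 377 and 346 (log2 fold change -1.12, SE 0.15, adjusted p = 0.0420). Its partner Il20rb was at 3964 and 2749 against 1342 and 1689.8 (-1.13, adjusted p = 0.0711).

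In the tumour necrosis factor family 2 of 34 tested genes fell and none rose. Of all genes, 0.302% were called lower and 0.165% higher. Tnfsf15, a cytokine that co-stimulates T cells, dropped from 269 and 439.6 to 31.8 and 31.4 normalised counts (log2 fold change -3.40, SE 0.34, adjusted p = 0.0226). Tnfrsf11b, which encodes osteoprotegerin, the decoy receptor that binds RANK ligand, dropped from 420.2 and 772 to 57.7 and 73.2 (log2 fold change -3.11, SE 0.32, adjusted p = 0.0236). In both genes the male control was the highest library and the 2 labelled knockouts were close to each other. Tnfrsf9, a T cell co-stimulatory receptor, passed with the block, at 404 and 488 against 1589 and 1194 (1.63, adjusted p = 0.0291), and Tnf itself was at 0.37 (adjusted p = 0.626). Nod1, an intracellular sensor of bacterial cell walls that lies outside these lists, fell from 1301 and 1461 to 549 and 722 (log2 fold change -1.13, SE 0.16, adjusted p = 0.0449).

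In the lists of chemokines, interferon-stimulated genes, the IL-17 axis and antimicrobial peptides no gene passed without the block, and the lists lay on different sides of 0. Neutrophil-attracting chemokines and growth factors were positive in 5 of 7 cases (median 1.23). Cxcl2 was at 2482 and 1609 against 7983 and 4255 normalised counts (1.54, adjusted p = 0.1001), Cxcl1 at 3241 and 3812 against 8000.4 and 6657 (1.05, adjusted p = 0.122) and Csf2 at 155 and 273 against 884 and 1291 (2.37, adjusted p = 0.209). Other chemokines were negative in 14 of 19 cases (median -0.58). Their summed normalised counts went the other way, at 29644 and 25339 against 40482 and 31953. The T cell attractants Cxcl9 and Cxcl10 were at 885 and 559 against 254 and 121 and at 2693 and 1303 against 931 and 358 in turn (log2 fold changes -1.999 and -1.70, adjusted p = 0.124 and 0.128). Ccl6 passed with the block, at 189.9 and 314 against 17.9 and 88.4 (-2.58, adjusted p = 0.0309). Interferon-stimulated genes were negative in 30 of 31 cases (median -0.63), and the antiviral gene Rsad2 was at 2793 and 997 against 327 and 393 (-2.22, adjusted p = 0.125). The female control was the highest library for Rsad2, Cmpk2, Ifit2 and Ifit3, and the list median was -0.85 between the females and -0.47 between the males.

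The axis of IL-17, IL-22 and IL-23, which drives imiquimod dermatitis, had 11 of 16 negative members, a median of -0.079 and 0 calls, while 2 were lower with the block. Among these was the receptor gene Il22ra1, at 628 and 920.3 against 224 and 503 normalised counts (-1.18, adjusted p = 0.0410 with the block). Il17a was at -1.61 (adjusted p = 0.3499) and Il17f at 52.3 and 61.7 against 24.9 and 21.9 (-1.25, adjusted p = 0.191). Antimicrobial peptide genes were positive in 8 of 13 cases (median 0.58). S100a8, a calgranulin of keratinocytes and neutrophils, was at 352 and 2145 against 5323 and 4128 (2.43, adjusted p = 0.152), the female control being the lowest library. Slpi, a protease inhibitor of inflamed epithelia, was at 2381 and 4263 against 11416 and 12954 (1.93, adjusted p = 0.0880). The defensin gene Defb14 lay on the other side, at 417 and 929 against 160.0 and 210.2 (-1.76, adjusted p = 0.0220 with the block).

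Markers of other cell types differed between libraries, but no gene in their lists passed without the block. In several of these lists the female and the male pair had medians of opposite sign. The part of these cell types in the results was not tested. Macrophage and monocyte markers were negative in 12 of 14 cases (median -1.29) with 0 calls, and the summed counts of the 15 in the tables were 9302 and 6202 against 4523 and 5787. C1qc, a complement gene of macrophages, was at 266 and 224 against 50.7 and 87.5 (-1.86, adjusted p = 0.117). Fibroblast markers were negative in 16 of 18 cases (median -1.12) and endothelial ones in 13 of 15 (median -1.21, with sums of 4720.0 and 3707 against 3766 and 3509). Female and male pair medians were -2.04 and -0.61 for macrophage and monocyte markers and -1.61 and -0.63 for fibroblast markers. For endothelial markers they were -2.25 and -0.15. Muscle markers had a median of -1.35, made of -4.35 between the females and 0.64 between the males. Langerhans and dendritic cell sums were 186694 and 98022 against 123571 and 124212, and those of T cells 6919 and 6881 against 8328 and 6622. T cell markers were negative in 10 of 17 cases (median -0.31). The groups did not overlap in 9 on the lower side and 2 on the higher, beside 26.3% and 27.4% of all genes. Icos, a co-stimulatory receptor of activated T cells, went the other way and passed with the block, at 67.9 and 42.2 against 535 and 219 (2.65, adjusted p = 0.0183). Sums of the neutrophil list were 84533 and 108036 against 102150.0 and 132275. Of its 18 genes 6 were absent from the tables and 3 were under the mean. S100a8, a gene of keratinocytes as well, belongs to it but made up a small part of the sums. What other members of the list, such as Asprv1, added to the sums is not given here. With these gaps the sums were not read as a measure of neutrophils.

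Genes for making cholesterol stood lower in the labelled knockouts at most steps of the pathway. The sterol list, made of mevalonate and cholesterol synthesis enzymes with their regulators, was negative in 21 of 23 cases (median -0.83), and the medians were -0.89 between the females and -0.82 between the males. In untreated skin the same list had a median of 0.13. Of these genes 1 passed, and 10 with sex as a block, beside 0.302% and 1.79% of all genes that were called lower in these fits. The groups did not overlap in 20, all lower, as for 26.3% of all genes. The gene that passed was Stard4, a carrier of cholesterol between membranes, which fell from 2979 and 4378 to 574 and 989 normalised counts (log2 fold change -2.26, SE 0.28, adjusted p = 0.0353). Hmgcs1, the enzyme that makes HMG-CoA, was at 14749 and 24296 against 4320.3 and 7255 (log2 fold change -1.76, adjusted p = 0.0169 with the block and 0.0607 without). Further along, Sc5d was at 2537 and 4009.9 against 809 and 1278 (-1.65, adjusted p = 0.0281 with the block). Insig1, the feedback regulator that retains the SREBP complex, was at 1758 and 6264 against 616 and 1434 (-1.82, adjusted p = 0.152), the male control standing far above the female one. Among the genes with positive values, Tm7sf2 at 0.074 was named after its value was seen and acts late in the pathway.

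**Figure D3:**
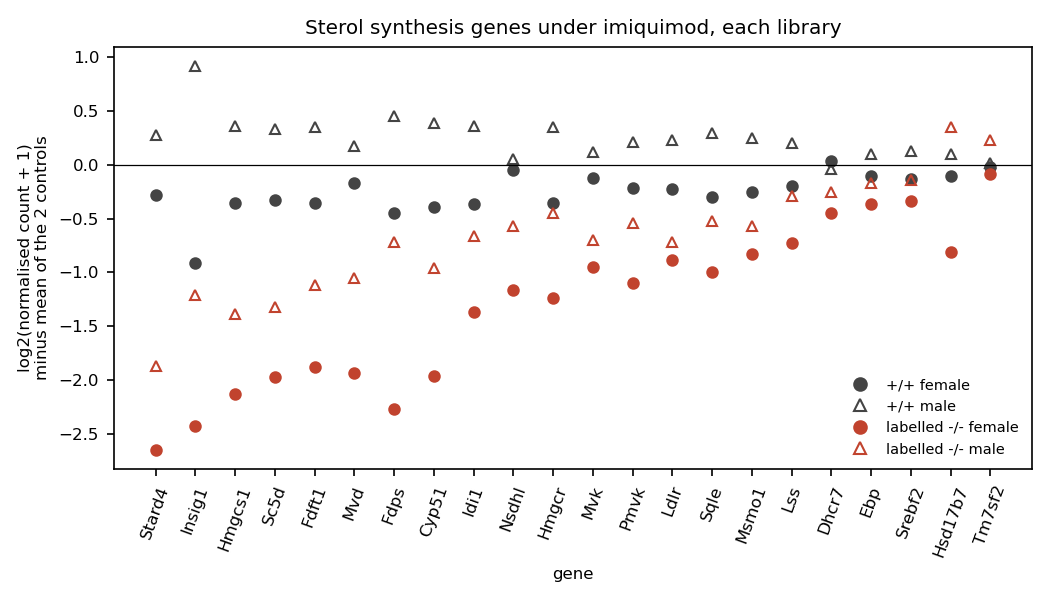
Log2 normalised count plus 1 of 22 sterol genes in each library, minus the mean of the 2 controls; circles are female, triangles male, grey the +/+ controls and red the labelled knockouts. From Stard4 to Srebf2 the labelled knockouts lie below the controls, and the order is lost in Hsd17b7 and Tm7sf2 at the right.

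The promoter of Hmgcs1 is shown because it alone, among 16 sterol genes with a RefSeq promoter, held the word TCACNCCAC, a core of the sterol regulatory element that was chosen after the values were seen. The stretch (chr13:119690189-119690248, plus strand, GRCm38.p6, the match in capitals) has the match beginning at base -137.
Hmgcs1: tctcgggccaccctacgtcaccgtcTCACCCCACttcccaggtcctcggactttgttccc
On either strand of the 300 bases the word was found in 158 of 10935 tested genes with a promoter (1.44%). A missing match says only that these letters are not in this window. Other lipid lists were less uniform. Acylceramide barrier lipid enzymes were positive in 15 of 28 cases (median 0.18) with 0 calls, but 4 were lower and 1 higher with the block. The higher one was the sulfotransferase gene Sult2b1 (0.64, adjusted p = 0.0440). The lower ones included the ceramidase gene Acer1, at 1049 and 1796 against 399.6 and 792 (-1.28, adjusted p = 0.0445), and the lipase genes Lipk and Lipm, at -1.04 and -0.68 (adjusted p = 0.0441 and 0.0282). Of the sebaceous gland lipid genes, Fasn, the fatty acid synthase, was lower with the block, at 8924 and 12199.9 against 6294 and 7798 (-0.57, adjusted p = 0.0459).

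The Skint genes encode membrane proteins of keratinocytes and thymic epithelium, and Skint1 is known for selecting the gamma delta T cells of mouse epidermis. All 11 tested were negative, between -2.24 and -0.71 on the log2 scale (median -1.06), and in all 11 both controls stood above both labelled knockouts, as in 26.3% of all genes. Skint8 passed, falling from 188 and 239.8 to 37.8 and 51.4 normalised counts (log2 fold change -2.24, SE 0.22, adjusted p = 0.0226). With the block 4 passed, where 1.79% of all genes were called lower. Among them were Skint7 at 291 and 235 against 54.7 and 77.0 (-1.99, adjusted p = 0.0339) and Skint1 at 2255 and 2296 against 842 and 1376 (-1.08, adjusted p = 0.0441). The female labelled knockout was low for Skint4 and Skint9, at 98.4 and 562 against 377 and 3092 in the male one. Skint genes lie side by side and resemble each other, so reads may have been divided among them.

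Among proteases and their inhibitors, the plasminogen activator gene Plau was at 303 and 420.2 against 1072 and 559 (1.12, adjusted p = 0.207). Kallikreins, the proteases that shed cornified cells, and their inhibitors were positive in 8 of 13 cases (median 0.37) with 0 calls. Klk6 was at 4611 and 3640.0 against 8608 and 11873 (1.30, adjusted p = 0.0871) and Klk13 at 121 and 210.1 against 523 and 619 (1.83, adjusted p = 0.0711). Of 15 Serpin B genes, with a median of 0.56 (0.73 between the females and -0.078 between the males), Serpinb6c and Serpinb9 were higher with the block and Serpinb7 lower. Serpinb9b, which was not in this list, was also lower with the block (-5.82, adjusted p = 0.0182), and its counts are given below. Serpinb6c was at 189 and 273 against 1000.0 and 944 (2.09, adjusted p = 0.0255).

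**Figure D4:**
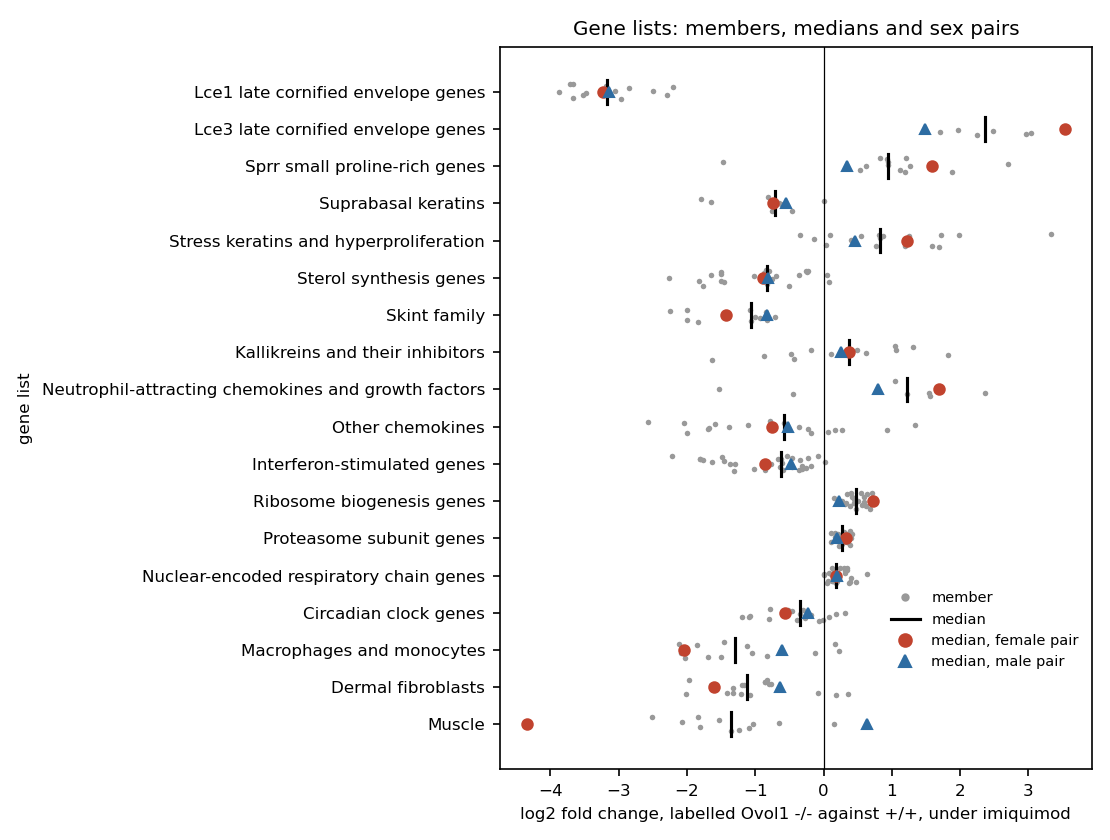
Log2 fold change under imiquimod of the members of 18 gene lists (grey points), with the list median (black bar) and the medians of the female pair (red circle) and the male pair (blue triangle). Lce1 genes lie at the far left with both pairs near -3.2, Lce3 genes at the right, and the muscle list has its pairs on opposite sides, at -4.35 and 0.64.

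Housekeeping lists gave small differences and no calls, with or without the block. Ribosome biogenesis genes were positive in 24 of 24 cases (median 0.47), and in all 24 both labelled knockouts stood above both controls, where 27.4% of all genes did so. Dkc1, a pseudouridine synthase subunit, was at 2299 and 3499.5 against 4919 and 4275 normalised counts (0.69, adjusted p = 0.127), and the medians were 0.73 between the females and 0.23 between the males. Proteasome subunit genes were positive in 27 of 27 cases (median 0.28), and nuclear-encoded respiratory chain genes in 30 of 30 with a median of 0.19. Cytosolic ribosomal protein genes had a median of 0.0064, which was negative with quantile normalisation. Genes of the circadian clock were negative in 14 of 17 cases (median -0.34) with 0 calls, with Per3 at 352 and 347 against 143 and 185 (-1.10, adjusted p = 0.0880). The sources used here do not state the time of day at which skin was taken.

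Single genes passed in other metabolic lists. The glycolytic enzyme gene Tpi1 fell from 9352 and 9122 to 4748 and 4756 normalised counts (log2 fold change -0.96, SE 0.14, adjusted p = 0.0449). It was the only one of 25 glycolysis and hypoxia genes to pass. With the block Pdk1, which holds back pyruvate oxidation, and the hexokinase gene Hk1 were lower (-0.96 and -0.63, adjusted p = 0.0437 and 0.0441) and the hypoxia factor Hif1a higher, at 8677 and 9549 against 20787 and 14657 (0.94, adjusted p = 0.0437). Ahrr, the repressor of the aryl hydrocarbon receptor and itself a target of it, rose from 171 and 163 to 525 and 551 (log2 fold change 1.68, SE 0.21, adjusted p = 0.0353). Cyp1b1, a further target, was higher with the block, at 377 and 382 against 818 and 930.0 (1.20, adjusted p = 0.0355), and the receptor gene Ahr was at -0.62 (adjusted p = 0.120). Of 20 NRF2 and glutathione genes 12 were positive and 0 passed, and the cystine transporter gene Slc7a11 was at 524 and 2543 against 9659 and 4376 (2.49, adjusted p = 0.135), with the female control lowest and the female labelled knockout highest.

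The remaining higher genes came from none of the gene lists. Hs3st1, a heparan sulfate sulfotransferase, rose from 245 and 301 to 3018 and 1377 normalised counts (log2 fold change 2.90, SE 0.42, adjusted p = 0.0449). Pitpnc1, a lipid transfer protein gene, rose from 206 and 273 to 1028 and 774 (log2 fold change 1.91, SE 0.21, adjusted p = 0.0281), and the tetraspanin gene Tspan3 from 872 and 781 to 3426 and 2239 (log2 fold change 1.75, SE 0.22, adjusted p = 0.0407). Prag1, a pseudokinase gene of cell shape signalling, rose from 266 and 330.0 to 1004 and 815 (log2 fold change 1.61, SE 0.22, adjusted p = 0.0449). In each of these 4 genes the female labelled knockout was the highest library. Smaller log2 fold changes were those of the bradykinin receptor gene Bdkrb2 (1.40, SE 0.20), Tmem125 (1.36, SE 0.20), the phosphate transporter gene Slc34a2 (1.29, SE 0.19), Serinc2 (1.16, SE 0.17), the palmitoyltransferase gene Zdhhc13 (1.13, SE 0.16), Plekha6 (0.98, SE 0.12) and the calpain subunit gene Capns1 (0.97, SE 0.11). The actin bundler Fscn1 (1.30, SE 0.17) and the tropomyosin gene Tpm2 (0.73, SE 0.10) act in the cytoskeleton. The adjusted p of these 9 genes ran from 0.0270 to 0.0449.

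The remaining lower genes are described by what each is known to do. The delta-catenin gene Arvcf fell from 1327 and 1279 to 573 and 576 normalised counts (log2 fold change -1.18, SE 0.10, adjusted p = 0.0226), the nectin gene Nectin2 from 4119.9 and 4622 to 2503 and 2371 (log2 fold change -0.84, SE 0.13, adjusted p = 0.0489) and the ephrin receptor gene Epha1 from 2453 and 2443 to 1166 and 1427 (log2 fold change -0.92, SE 0.13, adjusted p = 0.0449). In Arvcf the 2 libraries of each group were close to each other. Flrt2, a guidance and adhesion receptor gene, was at -0.91 (SE 0.13). Regulators of small GTPases included Arhgap24 (-1.73, SE 0.23), Srgap2 (-1.28, SE 0.18), Rapgefl1 (-1.01, SE 0.11) and the Ras-binding Rassf5 (-1.03, SE 0.11). In Wnt signalling, Lrp4, a receptor that modulates it, fell from 1427 and 1830.3 to 538 and 564 (log2 fold change -1.55, SE 0.18, adjusted p = 0.0298), and Bcl9l, a co-activator of beta-catenin, was at -0.92 (SE 0.12). The adaptor Gab1 (-0.80, SE 0.12), the phosphatase Dusp8 (-0.87, SE 0.13), the kinase Camkk1 (-1.24, SE 0.18), the stress sensor Sesn1 (-0.88, SE 0.12) and the scaffolds Tanc1 (-0.85, SE 0.12) and Sash1 (-1.03, SE 0.12) also fell.

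The largest falls outside the gene lists were in Tmem177, Apol7a and Slc6a2. Tmem177, which helps to assemble a subunit of cytochrome oxidase, dropped from 514 and 932 to 70.6 and 67.5 normalised counts (log2 fold change -3.31, SE 0.33, adjusted p = 0.0226). Apol7a, of the apolipoprotein L family, dropped from 307 and 198 to 15.9 and 36.1 (log2 fold change -3.30, SE 0.41, adjusted p = 0.0353), and Slc6a2, the noradrenaline transporter gene, from 287 and 149.6 to 22.9 and 38.0 (log2 fold change -2.77, SE 0.39, adjusted p = 0.0449). For these last 2 genes the female control was the highest library. The complement regulator Cd55 (-0.70, SE 0.10), the choline dehydrogenase gene Chdh (-1.28, SE 0.16), the sulfotransferase gene Chst15 (-1.79, SE 0.27), Olfm2 (-1.91, SE 0.21), Agfg2 (-1.82, SE 0.27), Fry (-1.25, SE 0.19), Rnf225 (-1.28, SE 0.18), Usp54 (-0.99, SE 0.10) and Akna (-1.02, SE 0.15) complete the named falls, and 1 further gene that fell has only a clone name.

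Of the genes that passed only with sex as a block, those with the largest fold changes were as follows. On the lower side, Serpinb9b, a serpin gene of chromosome 13, was at 109 and 166 against 0.994 and 1.90 normalised counts, which is 1 and 2 reads in the labelled knockouts (adjusted p = 0.0182 with the block). Upk3b, an uroplakin gene, was at 52.3 and 74.2 against 0 and 3.80 (adjusted p = 0.0137), and Hcn2, an ion channel gene, at 12.8 and 31.97 against 0 and 4.75 (adjusted p = 0.0444). These 3 passed the filter on the mean only through the controls. The hair keratin-associated gene Krtap3-2 was at 447 and 984 against 8.95 and 99.8 (0.0415). On the higher side, Psca, a surface antigen of epithelia, was at 193 and 85.6 against 843 and 2453 (log2 fold change 3.47, adjusted p = 0.0381), the male labelled knockout being highest. Placental growth factor, Pgf, was at 411 and 564 against 2999 and 2110.2 (2.38, 0.0381), and Tinagl1, a matrix protein gene, at 1466 and 2874 against 10347 and 7031 (2.05, 0.0406). The kinase gene Frk, the phospholipase gene Pla2g2d, Hapln3, Mroh4 and Zfp366 were at log2 fold changes of 2.03, 2.07, 2.23, 2.79 and 1.71 (adjusted p = 0.0303, 0.0415, 0.0183, 0.0255 and 0.0415 with the block).

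Genes beside Ovol1 on chromosome 19 (chr19:5549136-5560646, minus strand, mm10) were looked at as a list, as the neighbours of the gene named in the genotype. Of 28 tested, 20 were positive with a median of 0.15, and 2 passed, both higher, where 0.165% of all genes were called higher. Ap5b1, an adaptor protein subunit gene (chr19:5568025-5571261), rose from 80.7 and 89.1 to 199 and 232 normalised counts (log2 fold change 1.33, SE 0.18, adjusted p = 0.0449). Ehbp1l1, an endocytic adaptor gene (chr19:5707376-5726317), rose from 998 and 1120.1 to 2742 and 2623 (log2 fold change 1.34, SE 0.13, adjusted p = 0.0226). In untreated skin their log2 fold changes were 1.49 and 0.71, and they were at unadjusted p of 5.82e-05 and 0.000835 there.

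The core CCGTTA, reported for DNA bound by Ovol1, was searched on both strands of the 300-base promoters. It was found in 4.28% of the 10935 tested genes with a RefSeq promoter, in 1 of 19 genes called higher and in 1 of 36 called lower. These 2 are printed with the match in capitals, 60 bases on the strand of the gene.
Ap5b1 (chr19:5567922-5567981, plus strand): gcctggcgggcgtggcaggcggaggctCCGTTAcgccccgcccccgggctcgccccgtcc
Chdh (chr14:30022417-30022476, plus strand): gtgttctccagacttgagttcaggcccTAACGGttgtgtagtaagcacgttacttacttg
The match begins at base -75 in Ap5b1 and at base -189 in Chdh, where it lies on the other strand. The Chdh window belongs to a RefSeq start that lies inside the gene as annotated by GENCODE (chr14:30009023-30040527). Some genes have several RefSeq starts, and a match at any of them counted. Ap5b1 was higher and Chdh lower, from 945 and 901 to 344 and 416 normalised counts. A match is a description of the letters and does not show binding.

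The genotype difference was also set beside that in untreated skin, which was measured on separate libraries and, as controls, on +/- mice. Of the 65 genes, 56 had the same sign untreated, 21 of them at an unadjusted p under 0.05 there. Untreated, limma called 0 of 13930 genes, with 608 at an unadjusted p under 0.05 (4.36%). Tchhl1 was at 7.71 untreated against 5.74 under imiquimod, Tmem177 at -2.86 against -3.31, and Slc34a2 at 1.60 against 1.29. By contrast Fam83a was at -0.0023 untreated against 3.14, Il1a at 0.15 against 1.86, Aqp3 at 0.28 against 1.87 and Skint8 at -0.016 against -2.24. In 62 of the 65 the size was larger under imiquimod, but the genes were chosen for their difference there, so this count supports nothing. The Lce1 median was -0.47 untreated and the Lce3 median 0.74.

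The difference between the 2 genotype effects was tested in the same fit and called 0 genes, with 1435 at an unadjusted p under 0.05 (10.3%). The edgeR test also called 0 (1467 at that level) and DESeq2 100. The smallest adjusted p was 0.236. By smallest unadjusted p, the positive side was led by Fam83a, with a difference of 3.14 (SE 0.34), Prag1 (2.59, SE 0.31), Il1a (1.72, SE 0.25), Pitpnc1 (1.94, SE 0.30) and the phosphate transporter gene Slc20a2 (0.96, SE 0.18). Prag1 had opposite signs, -0.98 untreated and 1.61 under imiquimod. On the lower side stood the integrin gene Itga9 (-4.82, SE 0.57), Skint8 (-2.23, SE 0.31), Arvcf (-1.04, SE 0.15), Chdh (-1.40, SE 0.22) and the kinase gene Alpk1 (-1.84, SE 0.30). Itga9 was at 38.5 and 25.1 against 12.9 and 14.3 normalised counts under imiquimod, a log2 fold change of -1.14, and at 3.68 untreated. Alpk1 was not lower under imiquimod, with a log2 fold change of 0.19 there (limma adjusted p = 0.632) and 2.02 untreated. The control genotype and the treatment changed together between the comparisons and cannot be told apart in this difference.

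**Figure D5:**
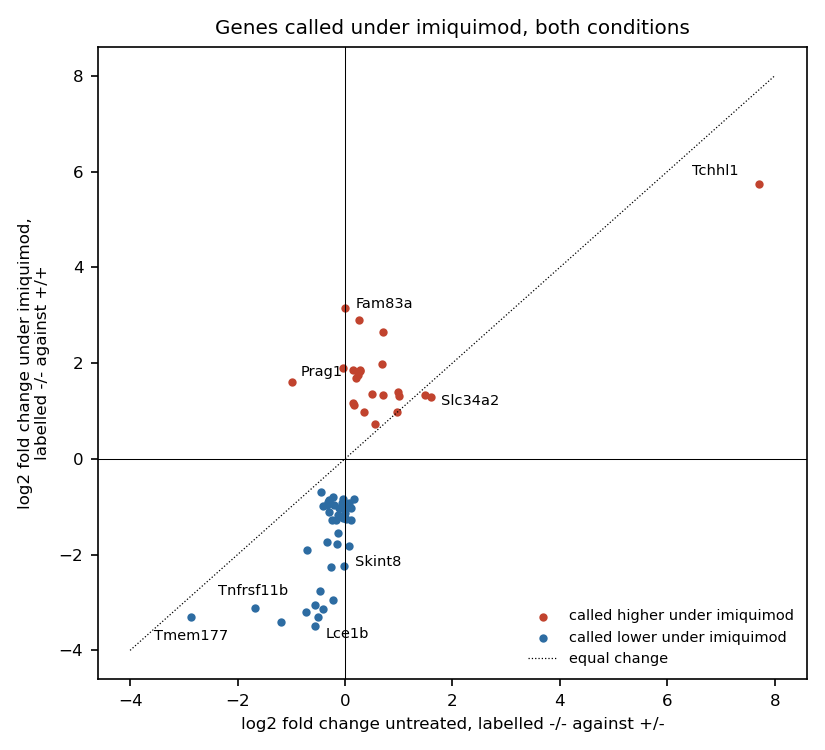
Log2 fold change of the 65 genes called under imiquimod, in untreated skin (labelled -/- against +/-, horizontal) and under imiquimod (labelled -/- against +/+, vertical); red genes were called higher and blue ones lower, and the dotted line marks equal change. Tchhl1, Slc34a2 and Tmem177 lie near or beyond that line, whereas Fam83a and Skint8 lie close to the vertical axis.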

How the data were processed

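Per the labels' protocols, RNA of dispase-separated epidermis was made into strand-specific polyadenylated libraries and sequenced in pairs. The submitters' processing notes name STAR 2.5.2a, Trimmomatic 0.35, the build mm10, R 3.6.1 and DESeq2 1.24.0; the read counter, its strand setting, the gene annotation and the gene filter were not given in the sources used here. What the authors deposited is a signal, namely normalised counts in 2 tables (imiquimod and untreated), each scaled by itself. In each library all values were whole multiples of 1 step within 0.001 read, which gave back whole reads. These totalled 28.6 to 43.1 M (M, 1e6 reads) per library over 8 libraries.

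A gene was tested if its mean over the 4 imiquimod libraries reached 10: 13930 were tested and 2972 left out, the lowest mean kept being 10.0 and the highest left out 9.98. limma 3.58.1 in R 4.3.3 fitted 4 group means over all 8 libraries to log2 of the deposited value plus 1, with trend and robust moderation (4 residual degrees of freedom), with Benjamini-Hochberg adjustment of each p-value across the genes tested. Fold changes are on that log2(value + 1) scale. No permutation of 2 against 2 libraries can give a two-sided exact p below 0.333. Replicate 1 is the female and 2 the male. Across genes, same-sex libraries of different groups deviated together from their group means (correlation 0.164 to 0.485, and 0.0844 to 0.408 without X and Y), so values with sex as a block stand beside those they change.

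The comparison and its 63 gene lists were chosen with earlier results of these data known. Listed were 56 symbols absent from the tables, and no set test was run. Named were Ovol1 and Ovol2, all called genes other than predicted genes and clones (some genes are not reported here), the 10 largest rises and falls called only with the block, of each list its first tested member, its called members and up to 4 members of largest change with an unadjusted p under 0.05, and 5 genes per direction for the difference of genotype effects. Genes that pass only with the block in a list, and the genes read out of the keratin check, follow their list. Alternatives were other pseudocounts, filters and scalings, plain moderation, the imiquimod table alone, the block, edgeR 4.0.16 and DESeq2 1.42.0 on the whole reads, and leaving out each library. Fitted to simulated counts for 13930 genes, limma recovered 82% of genes changed 4-fold and 27% of those changed 2-fold, with 5 false calls among 114. The simulated libraries were drawn independently, without the deviations that same-sex libraries share here, so these rates need not hold for the real ones. Positions are from GENCODE for GRCm38 and promoters from RefSeq for GRCm38.p6. Summaries and plots were made in Python 3.11.15 (pandas 2.3.3, numpy 2.4.6, matplotlib 3.10.9).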

Additional observations from a re-analysis of the deposited data

Results flagged for a closer look

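In 16 gene lists the female and the male pair had medians of opposite sign for the labelled knockout against the control under imiquimod. Each pair is 1 library against 1, so this difference between the sexes was not tested. From the widest gap down, muscle markers were at a median log2 fold change of -4.35 between females and 0.64 between males, adipocyte markers at -2.60 and 0.37, sebaceous gland lipid genes at -0.63 and 1.06, melanocyte markers at -1.44 and 0.16, and the 4 mast cell markers tested at -0.63 and 0.60. Heat shock and dissociation stress genes were at 0.85 and -0.17, aryl hydrocarbon receptor genes at -0.13 and 0.86, Langerhans and dendritic cell markers at -0.61 and 0.34, and Serpin B genes at 0.73 and -0.078.

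Gaps under 0.6 lay in 7 lists. Aquaporins and solute channels were at -0.52 between females and 0.025 between males, glycolysis and hypoxia genes at 0.057 and -0.22, genes of STAT3, SOCS and gp130 receptors at 0.16 and -0.12, and the Fam83 family at 0.11 and -0.13. Cytosolic ribosomal protein genes were at -0.085 and 0.078, glutathione S-transferases at 0.029 and -0.059, and the EGF receptor family at -5.3e-04 and 0.035.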

How the results depend on the processing

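The 254 named and listed genes followed through the alternatives kept their direction in each of them, while the number of calls varied. Many of these genes were chosen for a call or a small p. Where groups do not overlap, leaving out 1 library cannot reverse a gene, so the kept direction is no independent check. Against 65 calls, sex as a replicate block gave 335, edgeR 30 (all among the 65), edgeR with the block 285, DESeq2 1240, plain moderation 0 and the imiquimod table alone 0 (48 with the block, 18 of them among the 65). An adjusted p under 0.10 gave 629. Leaving out 1 library gave 0 to 301 calls, and with the block, an alternative chosen after seeing the data, 2 to 1315; with the block these were 81 when the female control was left out, 1315 for the male control, 2 for the female labelled knockout and 351 for the male one. The lone library of a group is then assumed to vary like the others. Other pseudocounts, filters and scalings gave 60 to 82. For the difference of the genotype effects the alternatives gave 0 calls except DESeq2 with 100 and the block with the male control left out with 2. The cause of these shifts was not tested. Scaling moved the median of all genes from -0.0077 to 0.032 at most, and with quantile normalisation the list medians of ribosomal proteins, EGF receptor genes, Fam83 genes, Merkel cells, tumour necrosis factor genes and Ovol and EMT factors changed sign. Genes with few reads, such as Tchhl1 in the controls or Lce1k in the labelled knockouts, carry a counting error that more depth would lower.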
